A study of Mus musculus with 18 samples.

Results

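The 49 protein-coding genes of the mouse proteasome whose symbols begin with Psma, Psmb, Psmc, Psmd, Psme, Psmf or Psmg followed by a number were examined, of 54532 genes in the count table. Membership follows from the symbol and the protein-coding label and uses no measured value. The 5 genes Psmb8, Psmb9, Psmb10, Psme1 and Psme2, which encode the immunoproteasome catalytic subunits and the PA28 activator, were set against the other 44 members. RNA was sequenced from primary microglia, the resident macrophages of the brain, taken from mouse pups at postnatal day 0 to 3 and grown in mixed culture for 10 days before isolation. The 18 libraries form 6 groups of 3. The groups are cells of genotype hTrem2 R47H/+ given 1 uM of the Akt inhibitor MK2206 and then tau, R47H/+ cells given tau, mTrem2 +/+ cells given tau, R47H/+ cells given MK2206, untreated R47H/+ cells and untreated +/+ cells. Tau was given as fibrils of the 0N4R isoform at 1 ug/ml, after a 6 h pretreatment with MK2206 or with 0.01% DMSO as its vehicle. The time on tau and the groups given DMSO are not stated, so cells called untreated here may have had DMSO. MK2206 was tested in R47H/+ cells only. Trem2 encodes a microglial surface receptor, and the R47H variant of human TREM2 is a risk variant for Alzheimer's disease. The labels do not say whether the 3 replicates of a group came from separate animals or cultures, so p-values measure the spread between these libraries, which may be technical.

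The proteasome degrades ubiquitin-tagged proteins. Its 20S core is a barrel of alpha rings around beta rings, and the beta rings carry the catalytic subunits encoded by Psmb5, Psmb6 and Psmb7. In cells exposed to interferon these are replaced in newly built cores by Psmb8, Psmb9 and Psmb10, in that order, which gives the immunoproteasome and favours peptides that fit MHC class I. Caps bind the ends of the core. The 19S cap holds ATPases (Psmc genes) and non-ATPase subunits (Psmd genes) that recognise and unfold substrates, while the PA28 cap of Psme1 and Psme2 opens the core without ATP. Immunoproteasome genes are known as interferon-responsive genes of activated microglia. The constitutive subunits are known to be controlled together, in part by the transcription factor NRF1.

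Promoters of 3 contrasted genes and of 2 constitutive partners are shown, because the levels of such pairs are compared below. Those of Psmb8, Psme1, Psmb5 and Psmb6 were taken for holding a match to a searched pattern, and that of Psmb9 as one without. RefSeq promoter windows on GRCm38.p6 were matched to 41 of the 49 members (44 windows of 300 bases, from 250 before to 50 after the annotated start). 3 patterns were searched on both strands: GAAANNGAAA, the core bound by interferon regulatory factors; TTCNNNGAA, the pattern bound by STAT dimers; and TGACNNNGC, the core of the antioxidant response element. Each window below runs 5′ to 3′ to 30 bases after the start, with matches in capitals.
Psmb8: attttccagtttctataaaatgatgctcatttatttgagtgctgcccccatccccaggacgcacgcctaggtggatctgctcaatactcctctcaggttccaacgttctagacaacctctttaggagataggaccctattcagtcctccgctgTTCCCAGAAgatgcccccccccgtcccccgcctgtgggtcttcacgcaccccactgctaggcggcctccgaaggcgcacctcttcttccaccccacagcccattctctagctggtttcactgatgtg
Psmb9: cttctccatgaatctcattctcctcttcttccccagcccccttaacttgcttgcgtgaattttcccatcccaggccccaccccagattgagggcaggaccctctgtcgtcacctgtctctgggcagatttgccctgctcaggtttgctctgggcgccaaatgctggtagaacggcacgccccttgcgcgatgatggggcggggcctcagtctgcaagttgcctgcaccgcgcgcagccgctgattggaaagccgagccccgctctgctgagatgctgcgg
Psme1: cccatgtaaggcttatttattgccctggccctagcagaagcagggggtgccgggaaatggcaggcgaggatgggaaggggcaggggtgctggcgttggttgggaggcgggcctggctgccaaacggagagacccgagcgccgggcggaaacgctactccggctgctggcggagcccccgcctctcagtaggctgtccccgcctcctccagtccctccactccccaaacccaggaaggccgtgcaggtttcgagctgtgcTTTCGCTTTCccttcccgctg
Psmb5: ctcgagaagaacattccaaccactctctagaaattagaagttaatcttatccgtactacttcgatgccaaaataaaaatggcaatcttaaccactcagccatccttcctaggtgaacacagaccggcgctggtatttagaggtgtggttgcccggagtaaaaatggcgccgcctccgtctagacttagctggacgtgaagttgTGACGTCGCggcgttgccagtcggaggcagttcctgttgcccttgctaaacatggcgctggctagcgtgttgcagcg
Psmb6: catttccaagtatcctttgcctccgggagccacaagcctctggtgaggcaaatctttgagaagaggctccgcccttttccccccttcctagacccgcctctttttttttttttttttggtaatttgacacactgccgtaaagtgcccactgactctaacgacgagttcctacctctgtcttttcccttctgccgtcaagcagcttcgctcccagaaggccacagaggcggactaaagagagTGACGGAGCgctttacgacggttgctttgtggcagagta
The windows lie at chr17:34197945-34198224, plus strand (Psmb8), chr17:34187301-34187580, minus strand (Psmb9), chr14:55578244-55578523, plus strand (Psme1), chr14:54617966-54618245, minus strand (Psmb5) and chr11:70525107-70525386, plus strand (Psmb6). Starts here are those of RefSeq and differ from the gene bounds deposited with the counts. The printed windows of Psmb8, Psmb9 and Psme1 lie wholly inside those deposited bounds, downstream of the deposited starts. Psmb8 holds a STAT-type match 97 bases upstream of its RefSeq start. Psme1 holds an interferon-regulatory-factor match 9 bases downstream. Psmb5 and Psmb6 hold antioxidant-type matches 47 and 9 bases upstream. Psmb9 holds none of the 3 patterns in this window, nor do Psmb10 and Psme2 in theirs, which are not printed. Over the 5 immunoproteasome and PA28 genes, 1 held the interferon-regulatory-factor core, 1 the STAT pattern and 0 the antioxidant core. Of 38 windows of the other members, 4, 2 and 6 held them in that order. Over all 32851 windows of the table the shares were 3.44%, 8.3% and 12.4%. These matches describe the letters in the windows and were not tested as binding sites.

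Total counts were 16288531 to 20686299 per library, and the members took 0.321 to 0.779% of them. Levels are CPM, read counts relative to the library's total, with totals scaled by the trimmed mean of M values. 48 of the 49 members passed the count filter. Psmb11, the thymus-specific catalytic subunit, had 0 counts in every library, and Psma8, an alpha subunit of the testis, had at most 72 counts in a library. In 2 libraries, the third of untreated +/+ cells and the second of R47H/+ cells with tau, levels fell with gene length relative to their partners. The slope was -1.27 and -0.60 log2 units for each 10-fold of length in these 2, and -0.10 to 0.19 in the rest. The median level of the tested members stood 1.25 and 0.52 log2 units above the group median in those 2 libraries, against -0.09 to 0.05 in the others. Counts and medians over the members are therefore given with all 18 libraries and again without these 2, which leaves 2 libraries in each of those groups. The tested members have a median length of 2768 bp, against 4126 bp for all tested genes. The part of gene length in the shift of the members was not tested. In the third untreated +/+ library Psmb1, of 4595 bp, had 262 CPM against 87.31 and 94.55 CPM in its partners. Psmd2, of 4038 bp, had 281 CPM there against 262 and 266 CPM. The summed level of 9 microglial markers was 4326 to 8102 CPM, and markers of other cells are given at the end. Mouse Trem2 stood at 128 to 243 CPM in R47H/+ cells with tau, 375 to 481 in +/+ cells with tau, 451 to 489 in untreated R47H/+ cells and 935 to 1894 in untreated +/+ cells.

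Psmb10, Psme2, Psme1 and Psmb8 were among the most abundant members per length, and Psmb9 was lower. The median over libraries was 202 CPM per kb for Psmb10, 188 for Psme2, 139.6 for Psme1, 84 for Psmb8 and 32.9 for Psmb9. The constitutive catalytic genes stood at 76.9 CPM per kb for Psmb6, 54.3 for Psmb5 and 14.4 for Psmb7, and the alpha ring gene Psma6 at 86.5. The assembly chaperones ran from 1.49 for Psmg3 and 2.41 for Psmd9 to 32.7 for Psmd10. These levels use the gene lengths deposited with the counts, and change with them.

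Psmb8 (chr17:34197721-34201454, plus strand, GRCm38) encodes the immunoproteasome subunit with chymotrypsin-like activity. Psmb8 had 329, 295 and 313 CPM in R47H/+ cells with MK2206 and tau, 279.6, 564 and 384 CPM in R47H/+ cells with tau, and 299.6, 356 and 224 CPM in +/+ cells with tau. Without tau, it had 116, 137 and 144 CPM in R47H/+ cells with MK2206, 148, 124 and 142 CPM in untreated R47H/+ cells, and 64.9, 76.2 and 236 CPM in untreated +/+ cells. All tau-treated libraries other than the third of +/+ cells lay above every library without tau, and the length-shifted untreated +/+ library stood far above its 2 partners. Psmb9 had 248, 209.6 and 216 CPM in R47H/+ cells with MK2206 and tau, 195, 309 and 222 CPM in R47H/+ cells with tau, and 176, 197 and 140.1 CPM in +/+ cells with tau. In cells without tau it had 76, 78.9 and 86.2 CPM in R47H/+ cells with MK2206, 97.6, 90.6 and 100.3 CPM in untreated R47H/+ cells, and 33.3, 44.4 and 97.9 CPM in untreated +/+ cells. Psmb9 (chr17:34181988-34187764, minus strand) encodes the subunit that replaces Psmb6, and here all 9 libraries with tau lay above all 9 without it. The 2 untreated +/+ libraries that were not length-shifted had the lowest levels of both genes. In bulk RNA, a smaller share of cells that express a gene and less RNA per cell cannot be told apart.

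Psmb10 (chr8:105935735-105938444, minus strand) encodes the subunit that replaces Psmb7. Psmb10 had 460.5, 441 and 465 CPM in R47H/+ cells with MK2206 and tau, 428, 806 and 457 CPM in R47H/+ cells with tau, and 381, 419 and 330.3 CPM in +/+ cells with tau. Without tau, it had 142, 152 and 167 CPM in R47H/+ cells with MK2206, 186, 172 and 192 CPM in untreated R47H/+ cells, and 96.9, 122 and 359.7 CPM in untreated +/+ cells. The lowest levels were again in the first 2 untreated +/+ libraries. The length-shifted +/+ library overlapped the tau-treated +/+ libraries.

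Psme1 (chr14:55578123-55581529, plus strand) encodes PA28 alpha. Psme1 had 427, 379 and 392 CPM in R47H/+ cells with MK2206 and tau, 395, 734 and 422 CPM in R47H/+ cells with tau, and 324, 366 and 302 CPM in +/+ cells with tau. In cells without tau it had 183, 181 and 196 CPM in R47H/+ cells with MK2206, 212, 196 and 197 CPM in untreated R47H/+ cells, and 104, 117 and 315 CPM in untreated +/+ cells. Tau-treated and tau-free R47H/+ libraries did not overlap. Psme2 (chr14:55587441-55591113, minus strand) encodes PA28 beta. Psme2 had 382, 345 and 348 CPM in R47H/+ cells with MK2206 and tau, 393, 735 and 441 CPM in R47H/+ cells with tau, and 348, 403 and 318 CPM in +/+ cells with tau. Without tau, it had 118, 121 and 143 CPM in R47H/+ cells with MK2206, 145, 122 and 137 CPM in untreated R47H/+ cells, and 88.8, 109 and 379 CPM in untreated +/+ cells. Tau-treated R47H/+ libraries again did not overlap tau-free ones. Reads of Psme2 are uncertain, since 44.5% of its 100-base stretches also occur in Psme2b, a copy of the gene.

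The constitutive catalytic genes moved less. Psmb5 (chr14:54614119-54618022, minus strand) is the partner of Psmb8. Psmb5 had 55.4, 42.7 and 49.1 CPM in R47H/+ cells with MK2206 and tau, 48.1, 93.8 and 69.2 CPM in R47H/+ cells with tau, and 67.8, 77.4 and 51.3 CPM in +/+ cells with tau. In cells without tau it had 37, 47.7 and 47 CPM in R47H/+ cells with MK2206, 41.2, 39.8 and 44.6 CPM in untreated R47H/+ cells, and 48.5, 59.5 and 169 CPM in untreated +/+ cells. Its tau-treated and tau-free libraries overlapped in +/+ cells and in MK2206-treated cells. Psmb6 had 144, 149.6 and 151 CPM in R47H/+ cells with MK2206 and tau, 194, 352 and 215 CPM in R47H/+ cells with tau, and 144, 158 and 136 CPM in +/+ cells with tau. Without tau, it had 144, 142 and 146 CPM in R47H/+ cells with MK2206, 135, 131 and 136 CPM in untreated R47H/+ cells, and 129, 138 and 449 CPM in untreated +/+ cells. Psmb6, the partner of Psmb9, was nearly flat in every group but R47H/+ cells with tau, apart from the length-shifted +/+ library. Psmb7 had 49.9, 54.1 and 54.6 CPM in R47H/+ cells with MK2206 and tau, 63.5, 93.5 and 69.6 CPM in R47H/+ cells with tau, and 48.5, 51.6 and 50 CPM in +/+ cells with tau. In cells without tau it had 39.5, 39.1 and 40.6 CPM in R47H/+ cells with MK2206, 44, 40.7 and 44.2 CPM in untreated R47H/+ cells, and 34.3, 36.9 and 92.1 CPM in untreated +/+ cells. Psmb7, the partner of Psmb10, was highest in R47H/+ cells with tau and in the length-shifted +/+ library.

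**Figure D1:**
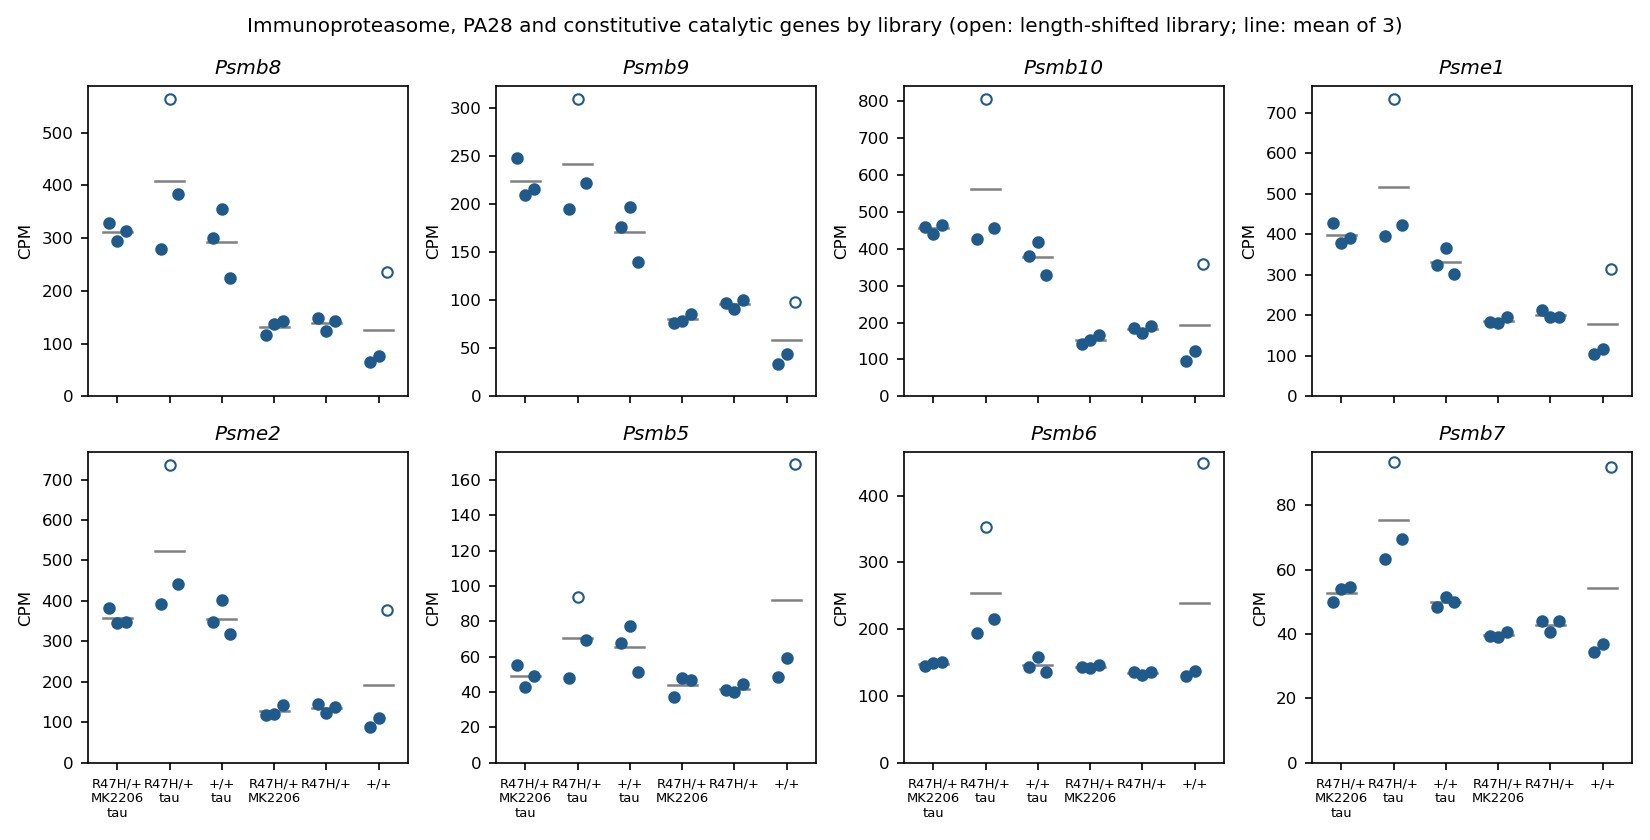
CPM of the 5 immunoproteasome and PA28 genes and the 3 constitutive catalytic genes (y axes, linear from 0) in each of 18 libraries by group (x axes). Points are libraries, open points the 2 length-shifted ones, and lines the mean of 3; the 5 immunoproteasome and PA28 genes are higher with tau, while Psmb5, Psmb6 and Psmb7 stay at or below 215 CPM outside the open points.

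The study asks how the R47H mutation and Akt bear on microglial states. Each immunoproteasome subunit was first divided by the constitutive subunit it replaces, per kb and within each library, which does not depend on library scaling. The ratio of Psmb8 to Psmb5 was 1.95, 2.27 and 2.09 in R47H/+ cells with MK2206 and tau, 1.91, 1.97 and 1.82 in R47H/+ cells with tau, and 1.45, 1.51 and 1.44 in +/+ cells with tau. Without tau it was 1.03, 0.946 and 1 in R47H/+ cells with MK2206, 1.18, 1.03 and 1.05 in untreated R47H/+ cells, and 0.44, 0.421 and 0.458 in untreated +/+ cells. The length-shifted libraries lay with their partners, and untreated +/+ cells had the lowest ratios of all groups. On the log2 scale the mean ratio was 1.30 higher in untreated R47H/+ than in untreated +/+ cells (SE 0.07), and tau raised it by 1.74 in +/+ cells (SE 0.04), by 0.81 in R47H/+ cells (SE 0.07) and by 1.08 in MK2206-treated R47H/+ cells (SE 0.07). With tau, R47H/+ cells stood 0.38 above +/+ cells (SE 0.04). None of these 5 pairs of groups overlapped. MK2206 moved it by -0.13 without tau and by 0.14 with tau (SE 0.07 each), and there the groups overlapped. Without the length-shifted library the difference with tau was 0.17 and the groups did not overlap.

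The ratio of Psmb9 to Psmb6 was 0.878, 0.717 and 0.731 in R47H/+ cells with MK2206 and tau, 0.513, 0.449 and 0.528 in R47H/+ cells with tau, and 0.626, 0.636 and 0.527 in +/+ cells with tau. Without tau it was 0.271, 0.284 and 0.301 in R47H/+ cells with MK2206, 0.369, 0.354 and 0.378 in untreated R47H/+ cells, and 0.132, 0.165 and 0.112 in untreated +/+ cells. Untreated +/+ cells were again lowest, and MK2206 with tau gave the highest 3 libraries. The mean log2 ratio was 1.45 higher in untreated R47H/+ than in untreated +/+ cells (SE 0.17), and the rise with tau was 2.15 in +/+ cells (SE 0.19), 0.43 in R47H/+ cells (SE 0.08) and 1.44 in MK2206-treated R47H/+ cells (SE 0.10). MK2206 moved it by -0.37 without tau (SE 0.05) and by 0.64 with tau (SE 0.12), and in neither case did the groups overlap. With tau, R47H/+ and +/+ cells overlapped.

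The ratio of Psmb10 to Psmb7 was 18.5, 16.4 and 17.1 in R47H/+ cells with MK2206 and tau, 13.5, 17.3 and 13.2 in R47H/+ cells with tau, and 15.8, 16.3 and 13.2 in +/+ cells with tau. Without tau it was 7.21, 7.79 and 8.25 in R47H/+ cells with MK2206, 8.46, 8.51 and 8.72 in untreated R47H/+ cells, and 5.67, 6.62 and 7.84 in untreated +/+ cells. The 9 libraries with tau all lay above the 9 without it. The log2 rise with tau was 1.18 in +/+ cells (SE 0.16), 0.77 in R47H/+ cells (SE 0.13) and 1.16 in MK2206-treated R47H/+ cells (SE 0.08). The difference between untreated R47H/+ and untreated +/+ cells was smaller than for the other pairs, at 0.36 (SE 0.14), and the groups did not overlap. MK2206 moved the ratio by -0.15 without tau (SE 0.06, no overlap) and by 0.25 with tau (SE 0.14, overlapping), which was 0.37 with no overlap without the length-shifted library. With 3 libraries against 3 an exact two-sided permutation test cannot give a p below 0.1, so none is given for these ratios. Up to 24.9% of 100-base stretches of Psmb5 and 20% of those of Psmb7 occur in other genes, which bears on the level of a ratio. Of the 100-base stretches of Psmb9, 9.02% occur in its neighbour Tap1. Tap1 averaged 103 CPM in untreated +/+ cells and 863 CPM in R47H/+ cells with tau. The part of such shared reads in the differences of the Psmb9 ratio was not tested.

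**Figure D2:**
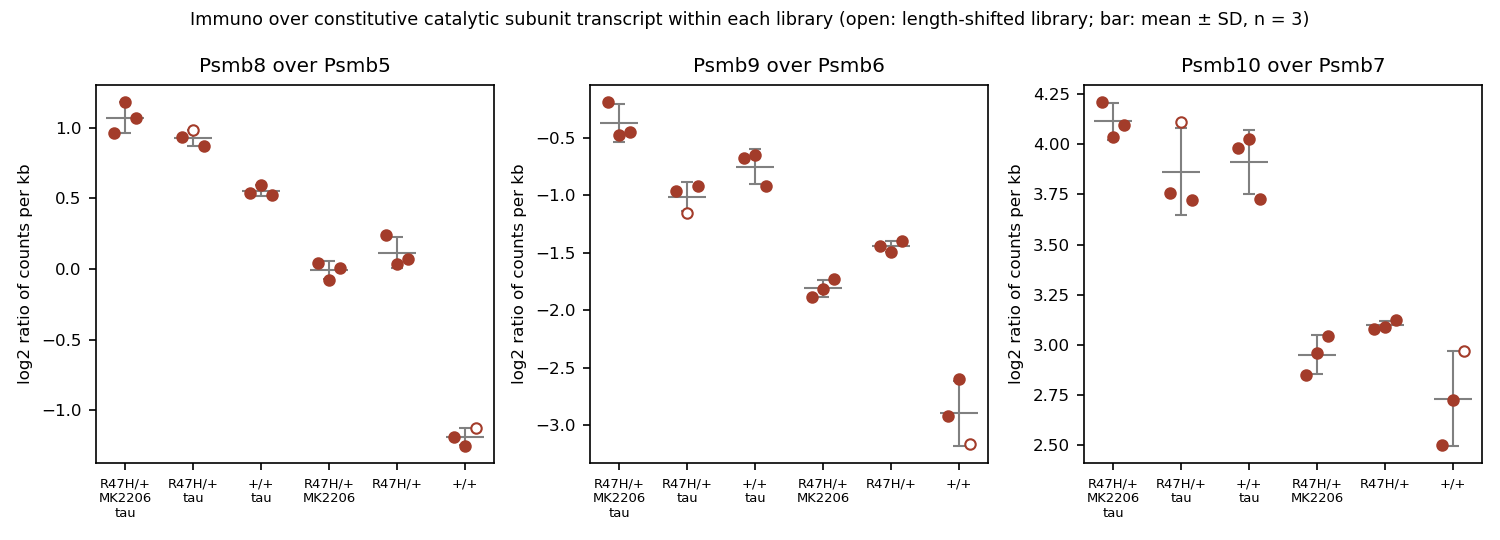
Log2 ratio of counts per kb of each immunoproteasome subunit over the constitutive subunit it replaces (y axes) by group (x axes), 1 point per library, with the mean ± SD of 3. Untreated +/+ cells have the lowest mean in all 3 panels, though in the third panel their libraries overlap those of R47H/+ cells with MK2206, all groups with tau lie above those without, and the 2 open, length-shifted libraries lie near their partners.

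Tau was compared with no tau in each setting by edgeR's quasi-likelihood test, with adjusted p under 0.05 as the threshold and adjustment over all genes. In R47H/+ cells 28 of 48 tested members rose and 0 fell, where 15% of all tested genes rose and 12.6% fell. All 5 immunoproteasome and PA28 genes rose, with a median log2 change of 1.57 against 0.70 for the other 43 members and 0 for all genes. Without the 2 length-shifted libraries 39 rose and 1, the chaperone Psmg2, fell (21.6% and 21.1% of all genes), and the medians were 1.25 and 0.47. The rises of the 5 were 1.96 ± 0.40 for Psme2, 1.62 ± 0.36 for Psmb10, 1.57 ± 0.37 for Psmb8, 1.36 ± 0.32 for Psme1 and 1.33 ± 0.29 for Psmb9 (SE, adjusted p by edgeR 0.00145 to 0.00487). The log2 rises of all 5 lay between 1.00 and 1.62 without the 2 libraries, each past the threshold.

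The rest of the complex rose by less, in every core and cap class. All 7 alpha ring genes rose in R47H/+ cells with tau (median log2 change 1.06, and 0.78 without the 2 libraries), as did 4 of 6 ATPases (median 0.71, and 0.49 without the 2 libraries), 2 of 4 structural beta genes, 5 of 11 non-ATPase genes of the 19S cap and 1 of 3 constitutive catalytic genes. Without the 2 libraries these counts were 5 of 6, 4 of 4, 11 of 11 and 3 of 3. Leaving out 1 library, the calls for the ATPases Psmc1, Psmc4 and Psmc5 held in 2 of 6 fits each and that for Psmc2 in 0. Of the ring genes so examined, the call held in 6 of 6 fits for Psmb2, 5 for Psma4 and Psma5, 4 for Psma3, 2 for Psma7 and 1 for Psmb3. Psmd10, which encodes gankyrin, a chaperone of cap assembly, rose by 1.29 ± 0.25 (adjusted p by edgeR = 0.000796), to 78.5 CPM with tau against 32 CPM without, and it was the sole chaperone of 7 to rise. Psmd11, a lid subunit, rose by 0.59 ± 0.08 (adjusted p by edgeR = 3.17e-05). Of the other regulators, Psme4 (PA200) rose by 0.39 and Psmf1 (PI31) by 0.43. The call for Psme4 held in 1 of 6 fits that left out 1 library, with changes of 0.25 (without the first R47H/+ library with tau) to 0.53. Psme3, which encodes PA28 gamma of the nucleus, did not pass the threshold (0.10 ± 0.10).

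In +/+ cells tau raised 7 members and lowered 0 with all libraries, where 14.4% of all genes rose and 12.1% fell. The 7 were Psmb9, Psmb8, Psme1, Psme2b, Psme4, Psmf1 and Psmd11. The log2 change was 1.55 ± 0.29 for Psmb9 (adjusted p by edgeR = 0.000712), 1.23 ± 0.37 for Psmb8 (0.0222) and 0.89 ± 0.32 for Psme1 (0.0491). Psmb10, at 0.97 ± 0.36, and Psme2, at 0.89 ± 0.39, missed it. With those 2 libraries left out, 34 members rose and 1, Psmd1, fell (21.6% and 19.8% of all genes), and the 5 rose by 1.57 to 2.12. The median of the 5 was 0.97 with all libraries and 1.83 without the 2, and that of the other 43 was -0.15 and 0.34. Of the 39 members that rose in R47H/+ cells without the 2 libraries, 32 also rose in +/+ cells, which is 82.1% of the 39 and 94.1% of the 34 that rose in +/+ cells. Over all tested genes 2922 and 2914 rose, and the 2087 shared ones are 71.4% and 71.6% of them.

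In MK2206-treated R47H/+ cells tau raised 11 members and lowered 0, where 14.3% of all genes rose and 11.3% fell. All 5 immunoproteasome and PA28 genes were among them, with log2 changes of 1.09 to 1.57, and the others were Psme2b, Psmd10, Psme4, Psmf1, Psmd11 and Psma5, of whose 100-base stretches 27.5% occur elsewhere. Leaving out 1 library, the call for Psma5 held in 0 of 6 fits, those for Psmb8 and Psme1 in 3 of 6 and that for Psmd11 in 5 of 6. No length-shifted library is in these groups, yet the count was 28 higher and 2 lower (Psmd1 and Psmd2) when the spread was estimated without those libraries (22.7% and 25.3% of all genes). The medians hardly moved, at 1.48 and 1.47 for the 5 and 0.20 and 0.18 for the other 43. All 7 alpha ring genes rose in that fit, by 0.35 to 0.82.

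**Figure D3:**
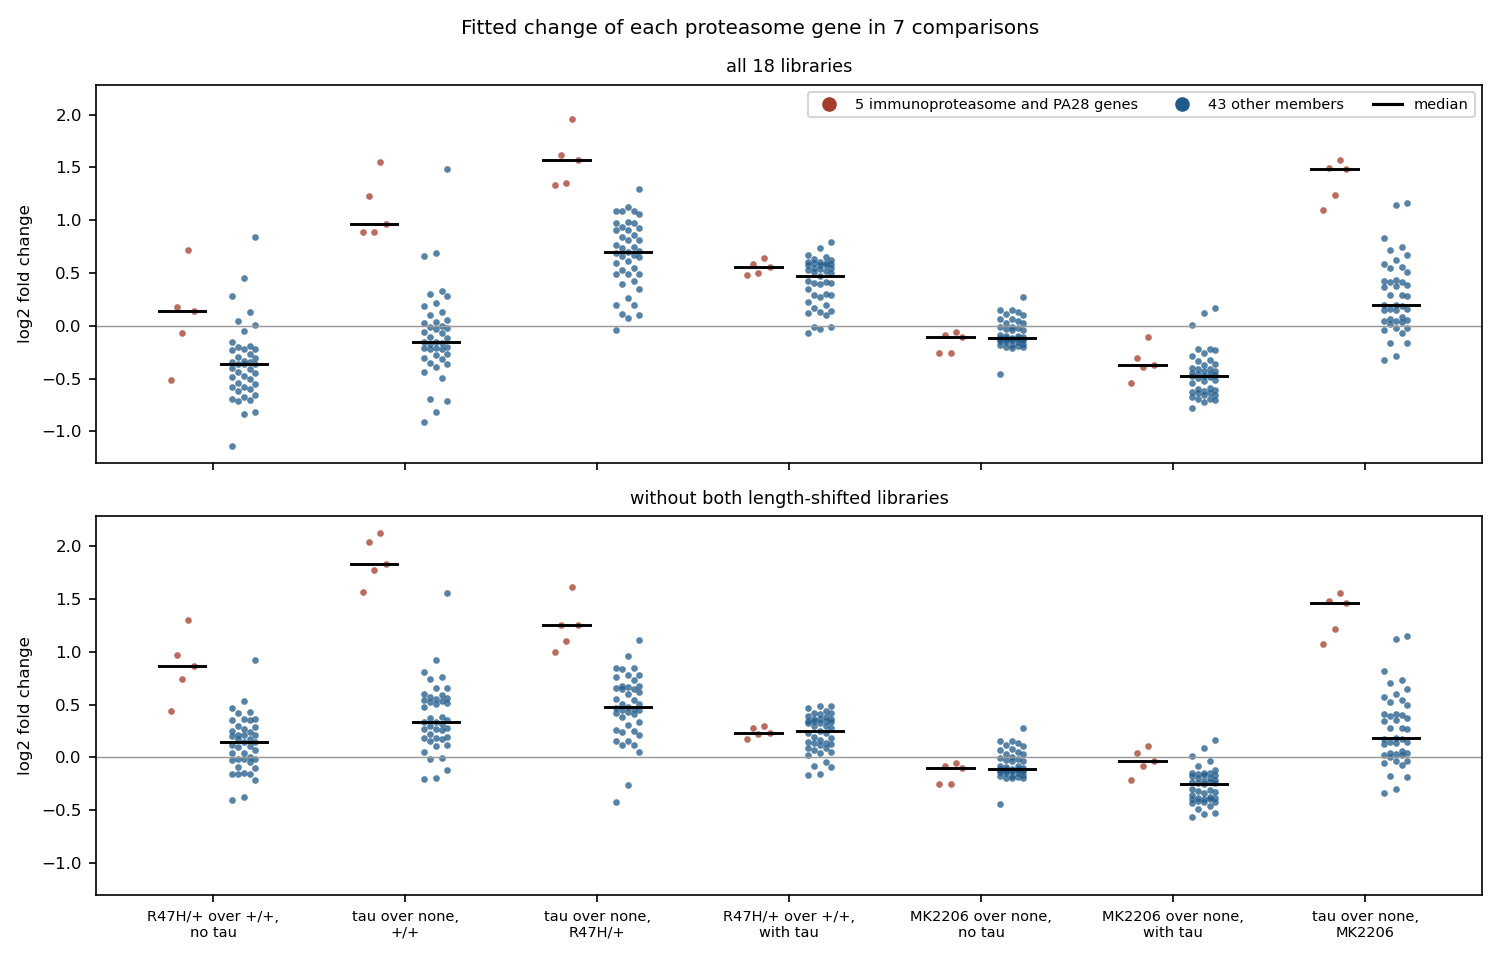
Fitted log2 fold change (y axis) of the 48 tested members in 7 comparisons (x axis), with all 18 libraries (upper panel) and without the 2 length-shifted ones (lower panel). Red points are the 5 immunoproteasome and PA28 genes, blue points the other 43 and black lines medians; the red median lies above the blue one in the 3 tau comparisons and in untreated R47H/+ over +/+ cells in both panels.

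Some members moved with tau but were not raised in the length-shifted untreated +/+ library. Psme4 (chr11:30771726-30880361, plus strand) encodes PA200, a cap that opens the core without ATP. Psme4 had 133, 144 and 145 CPM in R47H/+ cells with MK2206 and tau, 167, 113 and 139 CPM in R47H/+ cells with tau, and 134, 136 and 152 CPM in +/+ cells with tau. Its tau-free levels were 102, 91.5 and 95.8 CPM in R47H/+ cells with MK2206, 109, 106 and 103 CPM in untreated R47H/+ cells, and 92, 96.5 and 73.8 CPM in untreated +/+ cells. Each group with tau was higher than its partner without tau, with no overlap of libraries. Psmf1 (chr2:151715812-151744186, minus strand) encodes PI31, which binds the core. Psmf1 had 44.3, 47.4 and 39.8 CPM in R47H/+ cells with MK2206 and tau, 39.7, 42 and 38.9 CPM in R47H/+ cells with tau, and 35.5, 35 and 32.7 CPM in +/+ cells with tau. Its tau-free levels were 30.8, 28.4 and 30.2 CPM in R47H/+ cells with MK2206, 29.7, 31.6 and 28.5 CPM in untreated R47H/+ cells, and 22.8, 23.9 and 18.6 CPM in untreated +/+ cells. Its groups with tau likewise lay above those without, and untreated +/+ cells were lowest.

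Psme2b (chr11:48945354-48946190, minus strand) is the copy of Psme2, and 52% of its 100-base stretches are shared with Psme2, so its reads are uncertain. Psme2b had 68.8, 68.7 and 62.7 CPM in R47H/+ cells with MK2206 and tau, 61.6, 45.6 and 70.9 CPM in R47H/+ cells with tau, and 53.9, 49.2 and 55.5 CPM in +/+ cells with tau. Without tau the values were 26.9, 29.4 and 32.9 CPM in R47H/+ cells with MK2206, 37, 33 and 31.2 CPM in untreated R47H/+ cells, and 18.5, 17.1 and 21.1 CPM in untreated +/+ cells. All 9 libraries with tau lay above the 9 without, and the 3 untreated +/+ libraries were below all others, the length-shifted one included. Psmd10, the assembly chaperone, was also higher with tau in R47H/+ cells. Psmd10 had 54.2, 64.8 and 68.1 CPM in R47H/+ cells with MK2206 and tau, 70, 95.8 and 69.8 CPM in R47H/+ cells with tau, and 45.1, 50.9 and 55.5 CPM in +/+ cells with tau. Without tau the values were 31.6, 24.4 and 28.8 CPM in R47H/+ cells with MK2206, 34.8, 32.3 and 28.9 CPM in untreated R47H/+ cells, and 26.8, 32.7 and 63.9 CPM in untreated +/+ cells. Here the length-shifted untreated +/+ library stood above the +/+ libraries with tau, and the R47H/+ groups with tau did not overlap those without.

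All 7 alpha ring genes rose with tau in each of the 3 settings once the length-shifted libraries were left out. Psma2 is given as the alpha ring gene whose rise with tau in R47H/+ cells was largest with all libraries. Psma2 had 109.6, 111 and 110.4 CPM in R47H/+ cells with MK2206 and tau, 133, 220.1 and 129.5 CPM in R47H/+ cells with tau, and 89.1, 104 and 96.6 CPM in +/+ cells with tau. Libraries without tau had 66.6, 68.7 and 61.7 CPM in R47H/+ cells with MK2206, 77, 74.4 and 75 CPM in untreated R47H/+ cells, and 49.6, 59.3 and 182 CPM in untreated +/+ cells. In those fits the log2 rises of the 7 genes were 0.65 to 0.85 in R47H/+ cells, 0.52 to 0.92 in +/+ cells and 0.35 to 0.82 in MK2206-treated cells. The lid and base genes were less uniform. Psmd7 had 46.8, 46.2 and 48.4 CPM in R47H/+ cells with MK2206 and tau, 66.1, 96.4 and 70.9 CPM in R47H/+ cells with tau, and 55, 53.1 and 54.9 CPM in +/+ cells with tau. Libraries without tau had 41.2, 43.5 and 42.8 CPM in R47H/+ cells with MK2206, 40.9, 41.8 and 39.5 CPM in untreated R47H/+ cells, and 46.3, 47.9 and 89.1 CPM in untreated +/+ cells. Psmd7 (chr8:107580381-107588464, minus strand) was higher in R47H/+ cells with tau than in the other R47H/+ groups, with no overlap, and MK2206-treated cells with tau lay just above those without. Psmd1 had 60.9, 59.8 and 53.7 CPM in R47H/+ cells with MK2206 and tau, 84.2, 68.5 and 72.6 CPM in R47H/+ cells with tau, and 71.1, 75.3 and 81.2 CPM in +/+ cells with tau. Levels without tau were 74, 74.8 and 69.2 CPM in R47H/+ cells with MK2206, 62, 68.5 and 66.2 CPM in untreated R47H/+ cells, and 89.2, 84 and 45.6 CPM in untreated +/+ cells. Psmd1, the scaffold subunit of the base, ran the other way: the length-shifted +/+ library was the lowest of all, and MK2206 with tau gave lower levels than either treatment alone.

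Genotype was compared without tau. With all libraries 2 members were higher in R47H/+ cells, Psme2b (0.84 ± 0.15, adjusted p by edgeR = 0.000772) and Psmf1 (0.46 ± 0.11, adjusted p = 0.0079), and 1 was lower, Psmb5 (-1.14 ± 0.36, adjusted p = 0.0417). Of all genes 8.22% were higher and 6.83% lower. None of the 5 passed the threshold, and their median log2 change was 0.14 against -0.36 for the other 43. Psmb9 was nearest, at 0.72 ± 0.29 (adjusted p by edgeR = 0.103). Without the 2 libraries 19 members were higher and 2 lower (Psmd1 and Psmd7), against 15.8% and 13.1% of all genes. All 5 were then higher, by 1.30 ± 0.13 for Psmb9, 0.97 ± 0.15 for Psmb8, 0.87 ± 0.09 for Psme1, 0.74 ± 0.10 for Psmb10 and 0.44 ± 0.11 for Psme2, while the median of the other 43 was 0.14. Psmb5 did not pass in that fit (-0.37 ± 0.16, adjusted p = 0.0823). The changes thus turn on the third untreated +/+ library, in which Psmb8 had 236 CPM against 64.9 and 76.2 CPM in its partners, whereas the ratio of Psmb8 to Psmb5 was 0.458 there against 0.44 and 0.421.

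With tau on both sides, R47H/+ cells had 1 member higher than +/+ cells, Psmd11 (0.27 ± 0.08, adjusted p by edgeR = 0.0408), and 0 lower, where 5.25% of all genes were higher and 4.24% lower. That call was lost in each of 6 fits that left out 1 library, with the compared groups alone, with the replicate block and with no count filter. Psmd11 had 72.3 CPM on average in R47H/+ cells with tau and 59.9 CPM in +/+ cells with tau. With those 2 libraries left out, 24 members were higher and 0 lower (11.9% and 11.4% of all genes). They included all 7 alpha ring genes, 6 of 11 non-ATPase genes of the 19S cap, Psmb6 (0.48 ± 0.07) and Psmb7 (0.41 ± 0.07), but of the 5 only Psme1 (0.30 ± 0.08). The medians were 0.23 for the 5 and 0.25 for the other 43 in that fit, and 0.55 and 0.48 with all libraries.

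MK2206 without tau was followed by few members past the threshold. The spread of the fit to all libraries includes the 2 length-shifted ones, which are in neither compared group. With all libraries 0 of 48 passed the threshold in edgeR's test, where 1.19% of all genes were higher and 1.36% lower. An unadjusted p under 0.05 was found for 0 members (11 to 35 in the other pairwise comparisons), and with DESeq2 0 passed as well. Shares of all genes by these 2 measures are not given. Without the length-shifted libraries Psmc2, an ATPase of the cap, was lower (-0.20 ± 0.06, adjusted p by edgeR = 0.0412; 6.82% of all genes were higher and 7.1% lower). Its change with all libraries was -0.21 ± 0.25. Fitting the compared groups alone put 5 members past the threshold, and the share of all genes in that fit is not given. The medians were -0.11 for the 5 and -0.11 for the other 43 with all libraries, and -0.10 and -0.11 without the 2.

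With tau, MK2206 was followed by lower levels of some constitutive members. With all libraries Psmd11 (-0.42 ± 0.08, adjusted p by edgeR = 0.00832) and Psmd3 (-0.47 ± 0.11, adjusted p = 0.0356), both lid subunits, were lower and 0 members were higher, where 1.4% of all genes were lower and 1.64% higher. Leaving out 1 library, the call for Psmd3 held in 1 of 6 fits and that for Psmd11 in 6 of 6. Psmd11 averaged 53.9 CPM in R47H/+ cells with MK2206 and tau and 72.3 CPM in R47H/+ cells with tau. Psmd3 averaged 76.2 CPM with MK2206 and tau and 105.5 CPM with tau. Without the length-shifted libraries 23 members were lower and 0 higher (5.73% and 6.28% of all genes), namely 9 of 11 non-ATPase genes, 4 of 6 ATPases, 4 of 7 alpha ring genes, 3 of 4 structural beta genes, Psmb6, Psmb7 and Psme3. The largest of these changes were in Psmd12 (-0.57 ± 0.08), Psmd7 (-0.54 ± 0.07) and Psmd14 (-0.53 ± 0.08), and Psmd14 encodes the deubiquitinase of the lid. The 5 immunoproteasome and PA28 genes included 0 that passed in either fit; their median was -0.37 with all libraries and -0.03 without the 2, against -0.47 and -0.25 for the other 43. Without the 2 libraries their changes ran from -0.21 ± 0.11 for Psme2 to 0.11 ± 0.12 for Psmb9.

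**Figure D4:**
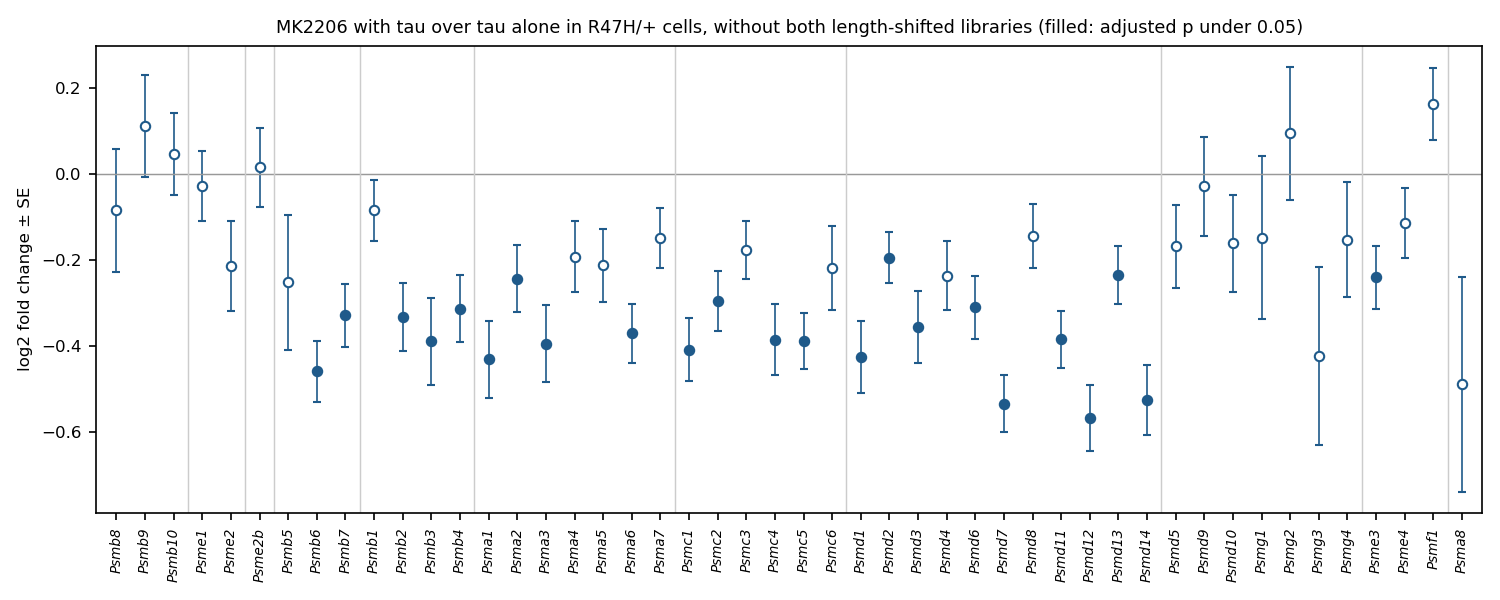
Log2 fold change ± SE (y axis) of each of 48 tested members (x axis, ordered by role) between R47H/+ cells with MK2206 and tau and R47H/+ cells with tau, without the 2 length-shifted libraries. Filled points passed the threshold; 23 constitutive members are filled and below 0, while the 5 immunoproteasome and PA28 genes at the left are open.

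Whether the change with tau differed between the 2 genotypes was tested as an interaction. With all libraries 1 member passed, Psmd7, another lid subunit, whose change with tau was 1.10 ± 0.28 larger in R47H/+ than in +/+ cells (adjusted p by edgeR = 0.0278; of all genes 2.05% passed with a larger and 3.32% with a smaller change). With those 2 libraries left out, 9 members passed, 4 with a larger and 5 with a smaller change (4.54% and 7.39% of all genes). Larger and smaller compare signed log2 changes, so a fall counts as smaller than a rise. The change with tau was smaller in R47H/+ cells for Psmb9 (-1.02 ± 0.18), Psmb8 (-0.79 ± 0.21), Psme2b (-0.60 ± 0.14), Psme1 (-0.57 ± 0.12) and Psmb10 (-0.51 ± 0.14), and larger for Psmd7 (0.54 ± 0.10), Psmb6 (0.48 ± 0.10), Psmd1 (0.45 ± 0.12) and Psmd14 (0.40 ± 0.12). Of these, Psmd1 fell with tau in +/+ cells in that fit (log2 change -0.205). The sign for the immunoproteasome and PA28 genes turned with the 2 libraries: with all 18, the difference was positive for 4 of the 5 (median 0.47, and 0.86 for the other 43), against 0 of the 5 without them (median -0.57, and 0.11 for the other 43). With all 18 it was 0.34 for Psmb8, 0.65 for Psmb10, 0.47 for Psme1 and -0.22 for Psmb9, none past the threshold. Whether MK2206 altered the change with tau in R47H/+ cells was tested in the same way. With all libraries 0 members passed in edgeR's test (0.196% of all genes did with a smaller change and 0.181% with a larger one). An unadjusted p under 0.05 was found for 4 members, against 28 for the genotype interaction, and 1 passed with DESeq2. Shares of all genes by these 2 measures are not given. Without the 2 libraries 8 passed, all with a smaller signed change under MK2206 (2.19% of all genes, and 2.76% had a larger one). These were Psmd7 (-0.60 ± 0.09), Psmd1, Psmb6, Psmc1, Psmd14, Psmd12, Psmd6 and Psmd2. Of the 8, Psmd1 and Psmd2 fell with tau under MK2206 in that fit. The 5 immunoproteasome and PA28 genes were not among the 8.

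**Figure D5:**
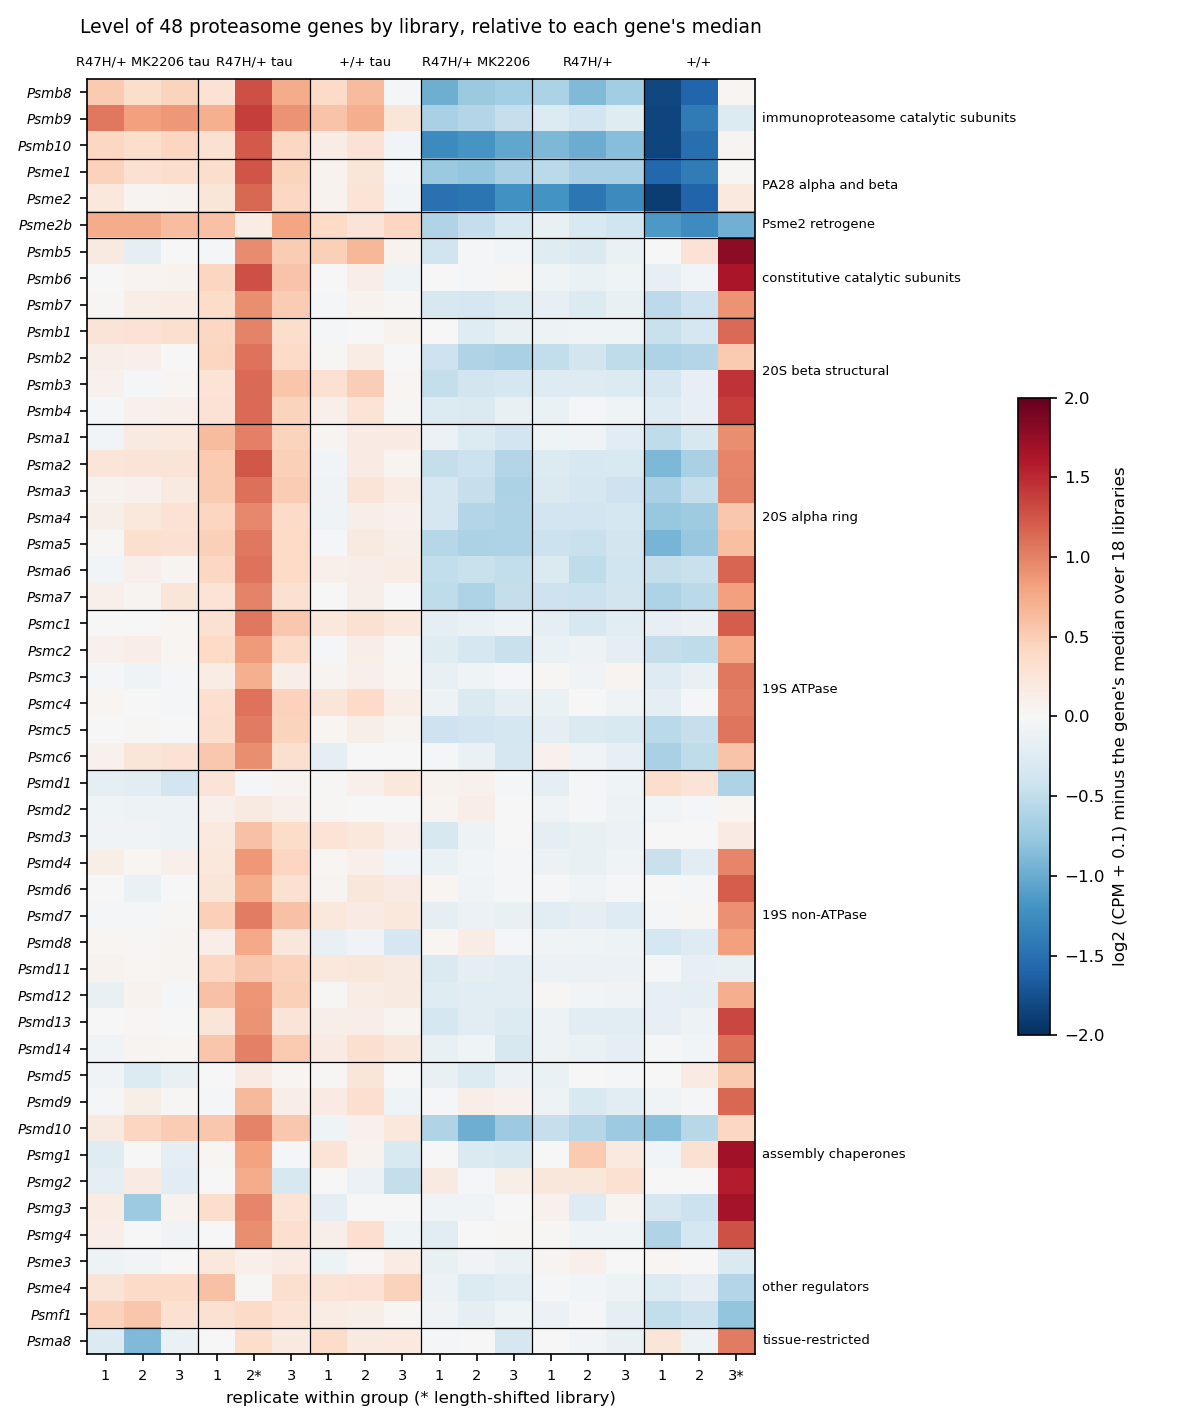
Level of each of the 48 tested members (rows, grouped by role) in each of 18 libraries (columns, grouped by treatment), as log2 (CPM + 0.1) minus the gene's median over libraries. The top 5 rows are low without tau and lowest in the first 2 untreated +/+ libraries; the 2 starred, length-shifted libraries are high across the constitutive core and ATPase rows, and in the +/+ one the top 5 rows lie near their medians.

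Genes of related pathways were counted from lists, to be read against the shares of all genes. With all libraries these were 15% up and 12.6% down with tau in R47H/+ cells, and 14.4% and 12.1% with tau in +/+ cells. They were 8.22% and 6.83% for untreated R47H/+ over +/+ cells, and 1.64% and 1.4% for MK2206 with tau over tau. Without the 2 length-shifted libraries the shares were, in the same order, 21.6% and 21.1%, 21.6% and 19.8%, 15.8% and 13.1%, and 6.28% and 5.73%. Of 14 genes that supply peptides to MHC class I or regulate that supply, such as the transporter Tap1 and the interferon-regulated factors Irf1 and Nlrc5, 7 rose and 1 fell with tau in R47H/+ cells, 8 rose and 1 fell in +/+ cells, and 8 were higher and 0 lower in untreated R47H/+ than in +/+ cells. Without the 2 length-shifted libraries these counts were 10 and 1, 10 and 1, and 8 and 1. Tap1, which lies head to head with Psmb9 and shares 212 bp of exon with it on the other strand, averaged 863 ± 49.4 CPM in R47H/+ cells with tau, 639 ± 77.8 in +/+ cells with tau, 407 ± 16 in untreated R47H/+ cells and 103 ± 14.4 in untreated +/+ cells (SD, n = 3). The counting is not stated to use strand, so reads from that stretch cannot be assigned to Psmb9 or Tap1. Of 16 proteasome partner genes, such as the core maturation factor Pomp and the deubiquitinase Usp14, 4 rose and 1 fell with tau in R47H/+ cells, 1 rose and 3 fell in +/+ cells, and 0 passed with MK2206 in the presence of tau. Without the 2 libraries 5 rose and 2 fell in R47H/+ cells, 2 rose and 5 fell in +/+ cells, and 5 were lower with MK2206 and tau. Of 11 genes of NRF1 and NRF2 control, 6 rose and 1 fell with tau in R47H/+ cells, 3 rose and 4 fell in +/+ cells, and 1 was higher and 5 lower in untreated R47H/+ than in +/+ cells. With those 2 libraries left out, those counts were 7 and 1, 3 and 5, and 2 and 6. Of 6 ubiquitin and ubiquitin-activating genes, 1 rose and 0 fell with tau in R47H/+ cells, a share near that of all genes, and 3 rose and 0 fell without the 2 libraries.

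Markers of other cells were measured beside these changes. The summed level of 6 fibroblast and vascular markers was 97.5 to 103 CPM in R47H/+ cells with MK2206 and tau, 55.3 to 93.4 in R47H/+ cells with tau, 40.1 to 44.5 in +/+ cells with tau, 30.6 to 33.6 in R47H/+ cells with MK2206, 25.5 to 32.8 in untreated R47H/+ cells and 4.99 to 12.7 in untreated +/+ cells. Cldn5, an endothelial marker, was at 0 in every library. Nearly all of the sum was Kdr, at 41.1 CPM in +/+ cells with tau and 8.64 CPM in untreated +/+ cells, while Col1a1, Col1a2, Dcn and Pecam1 averaged at most 0.751 CPM in any group. The monocyte gene Ly6c2 averaged 177 CPM in R47H/+ cells with tau, 146 in +/+ cells with tau, 12.3 in untreated R47H/+ cells and 4.66 in untreated +/+ cells. The summed level of 6 astrocyte markers was 73.3 to 92.2 CPM in R47H/+ cells with tau, 81.2 to 91.9 in +/+ cells with tau, 57.8 to 59.6 in untreated R47H/+ cells and 42.5 to 47.7 in untreated +/+ cells. It was mostly Aldh1l1, at 73.1, 71.2, 50.5 and 27.2 CPM in the same order, while Gfap averaged at most 1.09 CPM in a group and Aqp4 at most 0.353. That of 6 oligodendrocyte markers, mostly Mbp, was 64.6 to 82.1 CPM in R47H/+ cells with tau, 108 to 109 in +/+ cells with tau, 121 to 133 in untreated R47H/+ cells and 133 to 175 in untreated +/+ cells. Of the granulocyte genes, S100a9 was at 0 in every group and S100a8 averaged 7.61 CPM in R47H/+ cells with tau, 13 in +/+ cells with tau, 1.78 in untreated R47H/+ cells and 6.59 in untreated +/+ cells. Mrc1, a gene of border macrophages, averaged 195 CPM in R47H/+ cells with tau, 334 in +/+ cells with tau, 462 in untreated R47H/+ cells and 477 in untreated +/+ cells. Lyve1 and Cd163, listed with it, averaged at most 0.0191 and 0.659 CPM in any group. The part of these markers in the proteasome changes was not tested.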

How the data were processed

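RNA from primary mouse microglia was sequenced as paired reads of 150 bases. Per the submitters' processing notes, STAR, featureCounts and DESeq2 were used with GRCm38/mm10; versions, roles and strand setting are not given in the sources used here. The authors deposited 1 table of raw read counts per gene, with gene lengths. Groups were taken from the library titles, 3 libraries each. Counts were tested with edgeR 4.0.16 (R 4.3.3): filterByExpr, trimmed-mean scaling and a quasi-likelihood fit to all 18 libraries with 1 mean per group (12 residual degrees of freedom), for 7 pairwise comparisons and 2 interactions. p-values were Benjamini-Hochberg adjusted over all 13267 genes tested, or 13498 without the 2 length-shifted libraries, with a threshold of 0.05. The members and gene lists were chosen with earlier results of these data known. 1 gene of the list on MHC class I is not reported here and was left out of its counts. Any member could be named: the contrasted genes and their constitutive partners always, then by role up to 4 past the threshold with the smallest p, or the one with the smallest p where none passed, and members past it in an interaction. Tap1, Psma2 and the single markers were chosen after their values were seen. Alternatives were DESeq2 1.42.0, its size factors, no count filter, the compared groups alone, a replicate block, a gene-length offset (lowess, span 0.3), and leaving out libraries. The fit was tested on simulated data. Replicate numbers did not pair the libraries: of 45 same-numbered pairs, 4 had correlated deviations over 0.1. Read counts of 16288531 to 20686299 per library set the precision.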

Additional observations from a re-analysis of the deposited data

Results flagged for a closer look

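The change with tau differed between the genotypes, by an interaction test in edgeR, for 1 member with all 18 libraries and for 9 without the 2 length-shifted ones. Of all genes, 2.05% passed with a larger and 3.32% with a smaller signed change with all libraries. Those shares were 4.54% and 7.39% without the 2. With all libraries Psmd7 changed by 1.101 more on the log2 scale in R47H/+ than in +/+ cells (adjusted p = 0.0278). Without the 2 libraries the difference, R47H/+ minus +/+ cells, was -1.02 for Psmb9, -0.792 for Psmb8, -0.598 for Psme2b, -0.565 for Psme1 and -0.514 for Psmb10. It was 0.544 for Psmd7, 0.481 for Psmb6, 0.449 for Psmd1 and 0.395 for Psmd14 (adjusted p of the 9 by edgeR 0.000267 to 0.0251). With all 18 libraries the difference was positive for 4 of the 5 immunoproteasome and PA28 genes (median 0.466, against -0.565 without the 2 libraries), so its sign for these genes turns with those libraries. The call for Psmd7 with all libraries held in 5 of 12 fits that left out 1 library.

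The change with tau differed between MK2206-treated and untreated R47H/+ cells for 8 members without the 2 libraries. Of all genes, 2.19% passed with a smaller and 2.76% with a larger signed change in that fit. The difference, with MK2206 minus without, was -0.604 for Psmd7, -0.581 for Psmd1, -0.572 for Psmb6, -0.525 for Psmc1, -0.497 for Psmd14, -0.381 for Psmd12, -0.34 for Psmd6 and -0.333 for Psmd2 (adjusted p by edgeR 0.000365 to 0.0465). With all libraries 0 of them passed.

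The log2 ratio of Psmb9 to Psmb6 moved in opposite directions with MK2206, by 0.639 with tau and by -0.365 without it, with no overlap of libraries in either case. The difference of 1.005 between these effects was not tested.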

How the results depend on the processing

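Counts of members past the threshold, in either direction, moved with the 2 length-shifted libraries and with other choices, and the cause was not tested. The share of all genes past it moved as well. For R47H/+ over +/+ cells with tau it was 5.25% higher and 4.24% lower with all 18, and 11.9% and 11.4% without both. Shares under the other alternatives are not given, so the counts below do not show a move particular to the members. Without both, the counts were 21 for untreated R47H/+ over +/+ cells (3 with all 18), 35 for tau in +/+ cells (7), 24 for R47H/+ over +/+ cells with tau (1), 1 for MK2206 alone (0), 23 for MK2206 with tau over tau (2), 30 for tau in MK2206-treated cells (11), 9 for the genotype interaction (1) and 8 for the MK2206 interaction (0). In the same order, fitting the compared groups alone gave 1, 3, 6, 5, 1, 31, 0 and 1. The gene-length offset gave 12 for tau in +/+ cells, 6 for R47H/+ over +/+ cells with tau, 6 for MK2206 with tau over tau, and 4 for the genotype interaction. DESeq2 gave 5 for MK2206 with tau over tau and 6 and 1 for the interactions. No count filter gave 0 for R47H/+ over +/+ cells with tau, 1 for MK2206 with tau over tau and 5 for the genotype interaction. With the replicate block, whose numbers do not pair the libraries (5 of 18 matched their own number best), R47H/+ over +/+ cells with tau gave 0 and MK2206 with tau over tau gave 1. Leaving out 1 library gave 2 to 14 members for untreated R47H/+ over +/+ cells, 5 to 24 for tau in +/+ cells, 13 to 27 for tau in R47H/+ cells, 0 to 0 for R47H/+ over +/+ cells with tau, 0 to 0 for MK2206 alone, 1 to 2 for MK2206 with tau over tau, 7 to 10 for tau in MK2206-treated cells, 0 to 23 for the genotype interaction (23 without the first untreated +/+ library) and 0 to 0 for the MK2206 interaction.

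The median of the 5 immunoproteasome and PA28 genes minus that of the other 43 was 1.493 for tau in +/+ cells without both libraries. Leaving out 1 library it ran from 0.471 to 0.725 for untreated R47H/+ over +/+ cells, 0.976 to 1.493 for tau in +/+ cells, 0.777 to 0.99 for tau in R47H/+ cells and 1.153 to 1.324 in MK2206-treated cells. With tau, it was -0.018 to 0.143 for R47H/+ over +/+ cells and 0.051 to 0.225 for MK2206, and -0.093 to 0.015 for MK2206 alone. The ratios of each subunit to its partner were refitted by leaving out libraries and without the length correction, which cancels between groups. Leaving out 1 of 3 libraries cannot move a difference by 1 pooled SD, so that limit does not show how firm the ratios are. Over these fits the log2 difference between untreated R47H/+ and +/+ cells was 1.24 to 1.341 for Psmb8 over Psmb5. It was 1.316 to 1.597 for Psmb9 over Psmb6 and 0.249 to 0.483 for Psmb10 over Psmb7.

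Log2 changes of some genes below the threshold reversed sign. Values without both libraries are given first and the range over leaving out 1 library next. For untreated R47H/+ over +/+ cells these were 0.744 and -0.399 to 0.724 for Psmb10 (0.312 with the length offset, 0.009 with the block), 0.44 and -0.865 to 0.42 for Psme2, 0.27 and -0.589 to 0.249 for Psmb7, and 0.067 and -0.97 to 0.045 for Psma6. Psmb6 was 0.003 without both, and Psmb8 ran from -0.18 to 0.948 and Psme1 from -0.104 to 0.846. For tau in +/+ cells they were 0.265 and -0.808 to 0.246 for Psmb5, 0.116 and -1.013 to 0.097 for Psmb6, 0.476 and -0.37 to 0.458 for Psmb7, 0.335 and -0.678 to 0.316 for Psmb4, 0.26 and -0.513 to 0.241 for Psmc3, and 0.171 and -0.44 to 0.151 for Psma8 (0.022 with the offset). For R47H/+ over +/+ cells with tau they were -0.161 and -0.159 to 0.315 for Psmb5 (-0.094 with the offset), and Psma8 ran from -0.168 to 0.015. For MK2206 alone Psmb8 ran from -0.135 to 0.023 and Psma8 from -0.106 to 0.065. For MK2206 with tau over tau they were 0.111 and -0.243 to 0.108 for Psmb9, and 0.046 and -0.471 to 0.044 for Psmb10.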
